A study of Mus musculus with 9 samples.

Results

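The expression of 10 genes of antigen presentation was followed in mouse leukaemia cells whose chromatin remodeller Brg1 had been knocked down. A gene belonged to the set when the array's platform annotation gave a probe set its symbol and no other. All 10 named genes were found, each with 1 such probe set, among 19937 genes represented on the array. Of these, 6 serve MHC class II (H2-Aa, H2-Ab1, H2-Eb1, H2-DMa, Cd74 and Ciita) and 4 serve class I peptide loading (B2m, Tap1, Tap2 and Tapbp).

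RNA came from RN2, an acute myeloid leukaemia line labelled MLL-AF9/NrasG12D, and was read on 9 Affymetrix whole-transcript arrays. In each culture a TRMPV construct, which makes a hairpin RNA when doxycycline is present, had been switched on with 1 ug/ml doxycycline for 96 h. Each of the Brg1 hairpins, named Brg1sh_3232, Brg1sh_3364 and Brg1sh_4935, was read on 2 arrays, and the control hairpin Rluc, aimed at Renilla luciferase, on 3. The labels add the term TtTMPV to the line's name for the Rluc arrays only, so hairpin and line name cannot be told apart. The series set out to find what Brg1 controls downstream in this leukaemia, and each Brg1 hairpin was therefore compared with Rluc.

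Class II molecules are pairs of an alpha and a beta chain that show peptides from engulfed material to helper T cells. H2-Aa and H2-Ab1 are such partner chains, and H2-Eb1 is a beta chain of the other class II molecule. Cd74, the invariant chain, fills the groove until proteases remove it, H2-DMa belongs to the complex that then exchanges the remaining fragment for a peptide, and Ciita is the coactivator that switches these genes on. Class I molecules show peptides from the cytosol and need B2m as their light chain. The transporter Tap1-Tap2 carries those peptides into the endoplasmic reticulum, where Tapbp, or tapasin, holds the empty class I molecule beside it. Dendritic cells, B cells and macrophages carry much class II, while nearly all nucleated cells carry class I.

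The deposited values are log2 expression, and array medians lay between 7.39 and 7.49. The targeted gene Smarca4, which encodes Brg1, fell by 1.00 (SE 0.06) with Brg1sh_3232, by 0.99 (SE 0.06) with Brg1sh_3364 and by 1.05 (SE 0.06) with Brg1sh_4935, and the F test among the hairpins gave an adjusted p of 0.802. Of the markers of the line, Kit, Myb, Mpo, Hoxa9, Meis1 and Ptprc, 2 rose and 2 fell over the mean of the hairpins. Of 7 macrophage markers 6 rose over that mean, but by hairpin 4 rose with Brg1sh_3232, 4 with Brg1sh_3364 and 6 with Brg1sh_4935. C1qb and Mertk were called against Rluc only with Brg1sh_4935, and both differed among the hairpins (F test adjusted p = 0.0188 and 0.0103). The summed linear signal of the 7 markers was 11440.4 to 11906.5 on Rluc arrays and 17917 to 23128 on hairpin arrays. Of 9 dendritic cell markers 1, Itgax, rose over that mean, by 3.03 (SE 0.15), while Flt3, Zbtb46, Batf3, Clec9a and Xcr1 were not called. Of 5 measured B cell markers only Cd79b was called, and it fell by 0.77 (SE 0.07). None of 4 T cell markers was called by limma, and 0 had an unadjusted p under 0.05. Over the mean of the hairpins 13.3% of all genes rose and 15% fell. The part of these markers in the results below was not tested. The Y-linked gene Eif2s3y, looked up after its values were known, stood at 4.78 to 5.08 on Rluc arrays, 6.02 to 6.40 with Brg1sh_3232, 9.27 to 9.30 with Brg1sh_3364 and 7.90 on both Brg1sh_4935 arrays. The Y-linked genes Kdm5d and Uty stood at 8.92 to 9.25 and 9.63 to 10.01 on Rluc arrays and rose by 0.63 (SE 0.07) and 0.51 (SE 0.08) over the mean of the hairpins, with an F test adjusted p of 0.475 and 0.936 among the hairpins, against 2.64e-05 for Eif2s3y. The groups thus differed in more than Smarca4, and the part of this in the results was not tested.

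A gene was called when its Benjamini-Hochberg adjusted p over all 19937 genes was below 0.05. In bulk RNA, fewer cells that express a gene and less RNA per cell cannot be told apart. Against Rluc, 4 of the 10 genes were called with Brg1sh_3232, where 20.8% of all genes were. With Brg1sh_3364 5 of 10 were called, against 25.7% of all genes, and with Brg1sh_4935 4 of 10, against 22.1%. Over the mean of the 3 hairpins 4 of 10 were called, against 28.3% of all genes. Of these 4, 3 rose and 1 fell, while 13.3% of all genes rose and 15% fell. The arrays of 6, 8 and 7 of the 10 genes did not overlap with Rluc in the 3 comparisons in turn, against 40.9%, 46.4% and 42.8% of all genes, and those of 5 of 10 did not when all 6 hairpin arrays were taken, against 22.8%. In so few genes these shares are a description only. H2-Ab1 fell and Cd74, Tap1 and Tapbp rose with each hairpin, and H2-DMa was the fifth call with Brg1sh_3364. The comparisons share the 3 Rluc arrays, so like calls in them are not independent. Of all genes called over the mean, 47.1% were higher, but 36.5% when arrays were centred on their medians. For Brg1sh_4935 the same share was 44.3% and 31.6%. The calls of the 10 genes were the same under that centring.

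**Figure D1:**
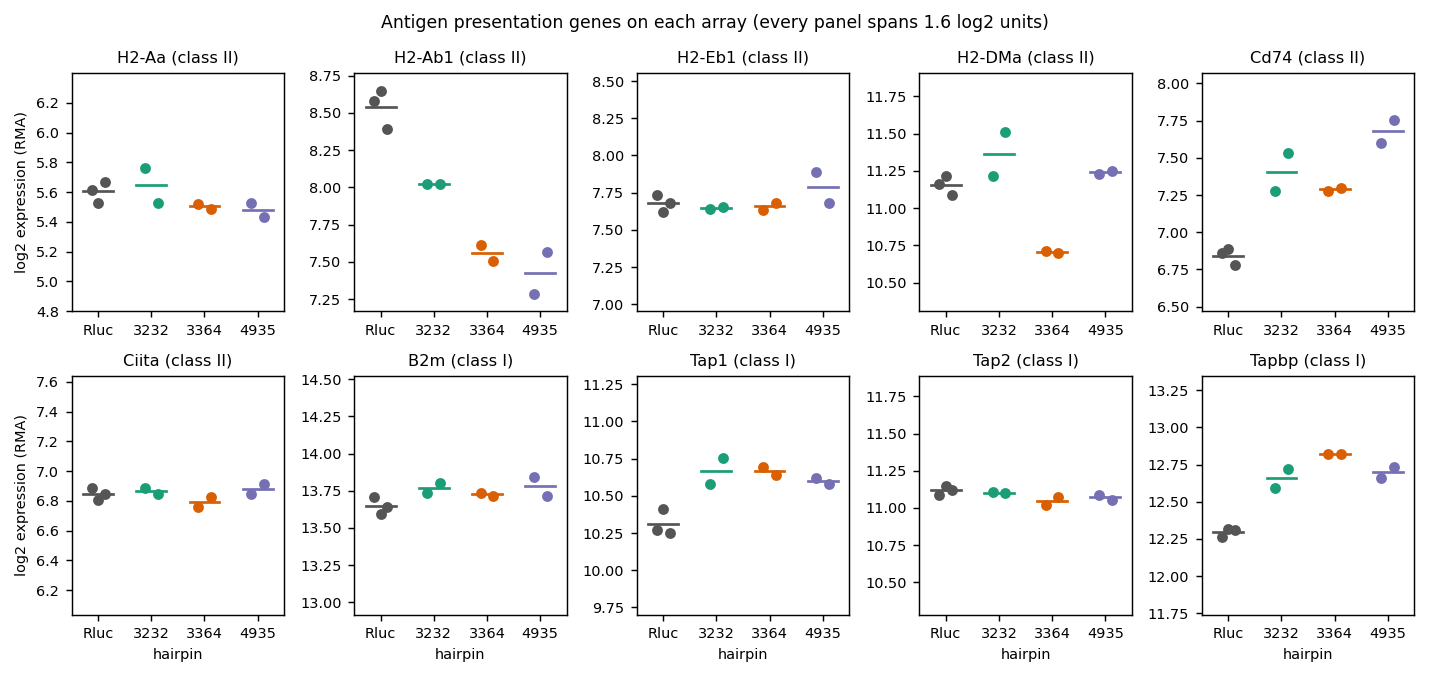
Log2 expression of each gene on each array, with 1 point per array and a line at the group mean, in 3 Rluc arrays and 2 arrays for each Brg1 hairpin. H2-Ab1 lies lower and Cd74, Tap1 and Tapbp lie higher on all 6 hairpin arrays than on all 3 Rluc arrays, while H2-DMa is below Rluc only with Brg1sh_3364.

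The 6 class II genes did not move as a block. Over the mean of the hairpins 1 rose, 1 fell and 4 were not called, with a median log2 change of -0.026 beside -0.0004 over all genes. H2-Ab1, the beta chain, had the largest fall of the 10 genes over that mean and Cd74 the largest rise, although with Brg1sh_3364 Tapbp rose more than Cd74. The alpha chain H2-Aa, the beta chain H2-Eb1 and the coactivator Ciita were not called with any hairpin. The levels limit this reading. With Rluc the T cell markers averaged from 5.14 (Cd3g) to 7.13 (Lat). H2-Aa (5.60), Cd74 (6.84) and Ciita (6.85) lay within that range. A gene at such a level may be unable to fall further, so the lack of a fall in H2-Aa and Ciita beside H2-Ab1 says little.

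H2-Ab1 (probe set 10444291, Entrez 14961) read 8.58, 8.65 and 8.39 on the Rluc arrays. It read 8.02 on both Brg1sh_3232 arrays, 7.61 and 7.51 with Brg1sh_3364, and 7.28 and 7.57 with Brg1sh_4935. All 6 hairpin arrays lay below all 3 Rluc arrays. The gene fell by 0.52 (SE 0.10, limma adjusted p = 0.00505) with Brg1sh_3232, by 0.98 (SE 0.10, adjusted p = 0.00011) with Brg1sh_3364 and by 1.12 (SE 0.10, adjusted p = 6.26e-05) with Brg1sh_4935. Expressed as probe signal, the Rluc level was left at 69.7% by Brg1sh_3232, with a 95% interval of 59.9 to 81.1. The other two hairpins left 50.6% (Brg1sh_3364, 43.5 to 58.8) and 46.1% (Brg1sh_4935, 39.6 to 53.6).

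Cd74 (probe set 10456005, Entrez 16149) moved the other way. It read 6.86, 6.89 and 6.78 on the Rluc arrays, 7.28 and 7.53 with Brg1sh_3232, 7.28 and 7.30 with Brg1sh_3364, and 7.60 and 7.75 with Brg1sh_4935. No hairpin array reached down to the Rluc range, and the Brg1sh_4935 pair was the highest. The rise was 0.56 (SE 0.08, adjusted p = 0.00122), 0.45 (SE 0.08, adjusted p = 0.00281) and 0.84 (SE 0.08, adjusted p = 0.000105) in the same order. That is 148%, 136% and 179% of the Rluc signal, with 95% intervals of 131 to 167, 121 to 154 and 158 to 202.

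H2-DMa (probe set 10444229, Entrez 14998), a chain of the peptide exchange complex, depended on the hairpin. It read 11.17, 11.21 and 11.09 with Rluc, 11.22 and 11.51 with Brg1sh_3232, 10.71 and 10.70 with Brg1sh_3364, and 11.23 and 11.25 with Brg1sh_4935. Only the Brg1sh_3364 pair lay below Rluc, and the other 4 hairpin arrays lay above it. It fell by 0.45 (SE 0.08, adjusted p = 0.00304) with Brg1sh_3364. With Brg1sh_3232 it differed from Rluc by 0.21 (SE 0.08, adjusted p = 0.104) and with Brg1sh_4935 by 0.085 (SE 0.08, adjusted p = 0.576), neither called. Without Brg1sh_3232 replicate 1 the first of these was 0.36 and was called (adjusted p = 0.00906).

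The remaining class II genes stayed close to Rluc. H2-Aa (probe set 10450154) ranged from 5.53 to 5.67 with Rluc and from 5.43 to 5.76 over the hairpin arrays. H2-Eb1 (probe set 10444298) ranged from 7.62 to 7.73 and from 7.63 to 7.89, and Ciita (probe set 10433507) from 6.80 to 6.89 and from 6.76 to 6.91. Taking the 6 hairpin arrays together, each gene overlapped with Rluc, although both Brg1sh_3364 arrays lay below Rluc for H2-Aa. Over the mean of the hairpins, the 95% interval of the log2 change ran from -0.19 to 0.071 for H2-Aa, from -0.097 to 0.13 for H2-Eb1 and from -0.087 to 0.085 for Ciita. H2-Aa, H2-Eb1, Cd74 and Ciita had mean levels below the median gene of the array, and no detection calls were used.

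The start regions of class II genes typically carry paired X and Y boxes, which RFX and NF-Y bind and to which Ciita is recruited. Windows were matched by symbol in RefSeq (build GRCm38.p6) for 6 of the 10 genes, with those of the chromosome that carries Cd74 left out. No window was used for H2-Ab1, Cd74, Ciita or Tap2, so boxes were not searched in these genes. The 250 bases before the start are shown for the class II chains H2-Aa, chr17:34287824-34288073 on the minus strand, and H2-Eb1, chr17:34305617-34305866 on the plus strand, because they hold both boxes although neither gene was called. Capitals mark GCAACT, an X box core, and CTGATTGG, a Y box core, searched on both strands.
H2-Aa: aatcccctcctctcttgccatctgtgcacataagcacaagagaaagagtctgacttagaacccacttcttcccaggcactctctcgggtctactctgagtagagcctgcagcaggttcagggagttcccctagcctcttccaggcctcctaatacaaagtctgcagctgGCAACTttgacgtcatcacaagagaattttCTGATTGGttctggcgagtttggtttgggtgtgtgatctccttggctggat
H2-Eb1: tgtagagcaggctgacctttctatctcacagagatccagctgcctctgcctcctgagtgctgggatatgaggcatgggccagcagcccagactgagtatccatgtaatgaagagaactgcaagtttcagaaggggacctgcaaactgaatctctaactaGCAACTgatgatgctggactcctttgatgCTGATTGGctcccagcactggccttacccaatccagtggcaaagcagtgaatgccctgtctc
In H2-Aa the cores begin at -81 and -51 from the start, and in H2-Eb1 at -91 and -62. The class II gene H2-DMa has 2 windows, and neither held GCAACT or CTGATTGG. Only these exact letters were searched, so a box with other letters would be missed. Over 32851 windows of that length, 9.01% held GCAACT and 3.83% held CTGATTGG. A match is a description of the letters, not evidence of binding.

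Of the RFX subunits that bind the X box, Rfx5 rose by 0.34 (SE 0.05, adjusted p = 0.000573) over the mean of the hairpins and Rfxank by 0.21 (SE 0.04, adjusted p = 0.004). The remaining subunit, Rfxap, was not called over that mean (-0.049, adjusted p = 0.379) and fell by 0.17 with Brg1sh_4935 (adjusted p = 0.0265). By hairpin, Rfxank was called only with Brg1sh_3364 (0.33, adjusted p = 0.00183). Its change was 0.17 with Brg1sh_3232 (adjusted p = 0.0504) and 0.14 with Brg1sh_4935 (adjusted p = 0.108). Taking the 3 hairpin means as the replicates, Rfxank was not called (adjusted p = 0.0858). Marchf1, a ubiquitin ligase that removes class II from the cell surface, rose by 0.87 (SE 0.12, adjusted p = 0.000646). For H2-Oa, of the complex that restrains H2-DM, the difference was -0.19 (SE 0.068, adjusted p = 0.0774), and it was called after a further quantile normalization (0.0459) and with arrays centred on their medians (0.0295). H2-Oa fell by 0.30 with Brg1sh_3364 (SE 0.09, adjusted p = 0.0336) and was not called with Brg1sh_3232 or Brg1sh_4935. The F test among the hairpins did not call it (adjusted p = 0.218). In all, 3 of 7 further class II genes rose over the mean of the hairpins and 4 were not called, with a median of 0.18, while 13.3% of all genes rose. H2-DMb1 and H2-DMb2 were not analysed here.

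**Figure D2:**
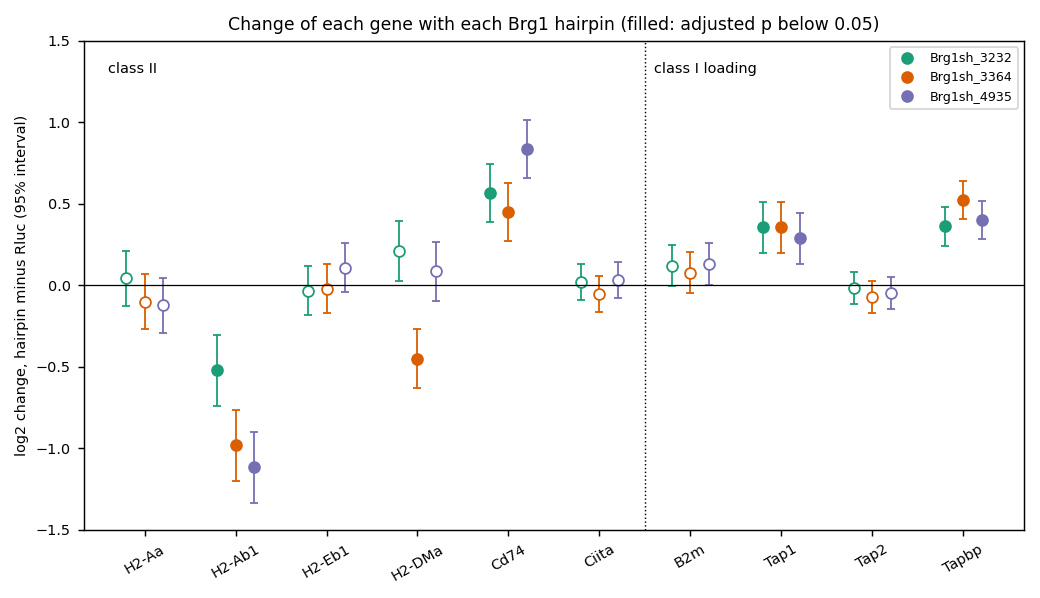
Log2 change of each gene with each hairpin minus Rluc, with 95% intervals from the fit to 9 arrays. Filled points have an adjusted p below 0.05, a dotted line parts class II from class I loading. H2-Ab1 is below 0 and Cd74, Tap1 and Tapbp are above 0 with every hairpin, and H2-DMa is below 0 only with Brg1sh_3364.

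Of the 4 class I loading genes Tap1 and Tapbp rose and B2m and Tap2 were not called, in each of the 3 comparisons. Their median log2 change was 0.24 with Brg1sh_3232, 0.22 with Brg1sh_3364 and 0.21 with Brg1sh_4935. For class II the medians were 0.031, -0.078 and 0.059, and after that centring 0.005, -0.12 and -0.0013. Over all genes they were 0.0055, -0.010 and 0.0003, and after that centring -0.020, -0.051 and -0.060. The difference between the class II and class I genes was not tested.

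Tapbp (probe set 10444068, Entrez 21356), tapasin, read 12.26, 12.32 and 12.31 with Rluc, 12.59 and 12.72 with Brg1sh_3232, 12.82 on both arrays with Brg1sh_3364, and 12.66 and 12.73 with Brg1sh_4935. The groups were apart on every array. It rose by 0.36 (SE 0.05, adjusted p = 0.00145), 0.52 (SE 0.05, adjusted p = 0.000122) and 0.40 (SE 0.05, adjusted p = 0.000651) in that order. These are 128%, 144% and 132% of the Rluc signal.

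Tap1 (probe set 10444244, Entrez 21354), which forms the peptide transporter with Tap2, read 10.27, 10.41 and 10.25 with Rluc. It read 10.58 and 10.76 with Brg1sh_3232, 10.70 and 10.64 with Brg1sh_3364, and 10.62 and 10.58 with Brg1sh_4935. Here too each hairpin array lay above each Rluc array. The rises were 0.36 (SE 0.07, adjusted p = 0.00621), 0.36 (SE 0.07, adjusted p = 0.00461) and 0.29 (SE 0.07, adjusted p = 0.0155). The call with Brg1sh_3232 was lost without its replicate 2 (adjusted p = 0.0595), and that with Brg1sh_4935 without its replicate 1 (0.114) or 2 (0.0738).

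Tap2 (probe set 10444268), the partner of Tap1 in the transporter, did not follow it. It ranged from 11.09 to 11.15 with Rluc and from 11.02 to 11.11 over the hairpin arrays. The Brg1sh_3364 and Brg1sh_4935 arrays lay below Rluc and those of Brg1sh_3232 within it. Its log2 change over the mean was -0.047 (95% interval -0.12 to 0.029, adjusted p = 0.387). B2m (probe set 10475414) read 13.71, 13.60 and 13.64 with Rluc and 13.72 to 13.84 over the hairpin arrays, all above Rluc by a small margin. Its change over the mean was 0.11 (SE 0.04, adjusted p = 0.0991), which was called after a further quantile normalization (adjusted p = 0.0362) and with a trended robust eBayes (0.0426).

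The windows of Tap1 (chr17:34187306-34187555, plus strand), B2m (chr2:122147437-122147686, plus strand) and Tapbp (chr17:33919228-33919477, plus strand) are shown to set the genes that rose beside B2m. The interferon response core, which is GAAA, any 2 bases and GAAA again, and the STAT core TTCNNNGAA were searched as well as both boxes, on both strands, and matches are in capitals.
Tap1: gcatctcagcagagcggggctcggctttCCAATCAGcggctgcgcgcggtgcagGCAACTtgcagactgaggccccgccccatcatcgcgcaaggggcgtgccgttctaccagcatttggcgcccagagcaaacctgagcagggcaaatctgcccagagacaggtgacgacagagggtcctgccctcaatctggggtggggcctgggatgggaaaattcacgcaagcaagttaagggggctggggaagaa
B2m: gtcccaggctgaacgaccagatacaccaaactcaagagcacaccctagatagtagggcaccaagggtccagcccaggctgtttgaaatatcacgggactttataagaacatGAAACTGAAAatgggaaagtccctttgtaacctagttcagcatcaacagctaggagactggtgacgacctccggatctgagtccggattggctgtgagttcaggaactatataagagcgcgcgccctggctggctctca
Tapbp: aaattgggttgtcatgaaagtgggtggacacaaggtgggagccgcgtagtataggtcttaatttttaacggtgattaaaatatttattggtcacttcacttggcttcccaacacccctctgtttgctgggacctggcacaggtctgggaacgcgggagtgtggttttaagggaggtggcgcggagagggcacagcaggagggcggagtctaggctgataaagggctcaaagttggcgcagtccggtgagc
B2m held the interferon response core at -139, as did 2.98% of all windows. Tap1 held CTGATTGG on the other strand at -222 and GCAACT at -196, toward the neighbouring gene Psmb9, whose RefSeq gene model lies 225 bases from that of Tap1. Tapbp held none of the 4, and TTCNNNGAA, which 7.02% of all windows hold, was in none of these 3. The letters of a window say nothing on whether a factor was bound.

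Of the 10 genes, 3 differed among the Brg1 hairpins by the F test, which leaves the shared Rluc arrays out of the comparison. These were H2-DMa (adjusted p = 0.00419), H2-Ab1 (0.0155) and Cd74 (0.0446), all of class II, while 10.5% of all genes were called. For the others of the 10 the adjusted p lay between 0.185 for Tapbp and 0.81 for B2m. Outside the 10, such calls were not limited to class II. The class I genes Psmb8, H2-Q4, H2-T24, H2-M3, Tapbpl, Psmb10 and Nlrc5 were called (adjusted p from 0.00102 to 0.0479). Of the further class II genes H2-Ob was called. H2-DMa, H2-Ab1 and Cd74 were each set against each pair of hairpins, which gives 9 differences, each adjusted over all genes.

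H2-DMa was higher by 0.66 with Brg1sh_3232 than with Brg1sh_3364 (SE 0.09, adjusted p = 0.00262) and higher by 0.53 with Brg1sh_4935 than with Brg1sh_3364 (SE 0.09, adjusted p = 0.00726). Between Brg1sh_4935 and Brg1sh_3232 it differed by -0.13 (95% interval -0.33 to 0.07, adjusted p = 0.583). Of all genes, 9.66%, 7.61% and 1.02% were called in these pairs. H2-Ab1 stood 0.46 higher with Brg1sh_3232 than with Brg1sh_3364 (SE 0.11, adjusted p = 0.0264). With Brg1sh_4935 it differed from Brg1sh_3232 by -0.60 (SE 0.11, adjusted p = 0.0407) and from Brg1sh_3364 by -0.13 (interval -0.37 to 0.10, adjusted p = 0.533). Cd74 was 0.39 higher with Brg1sh_4935 than with Brg1sh_3364 (SE 0.09, adjusted p = 0.0279). It differed by 0.27 between Brg1sh_4935 and Brg1sh_3232 (interval 0.08 to 0.47, adjusted p = 0.179) and by 0.12 between Brg1sh_3232 and Brg1sh_3364 (interval -0.08 to 0.31, adjusted p = 0.457).

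These differences rest on few arrays. Without either Brg1sh_3364 array 0 of the 10 genes passed the F test, although 3 had an unadjusted p under 0.05 in each of those limma fits. The adjusted p were 0.0503 and 0.0529 for H2-DMa, 0.0571 and 0.0594 for H2-Ab1, and 0.166 and 0.132 for Cd74. Without either Brg1sh_3232 array H2-Ab1 lost its call (0.0902 and 0.089), and without either Brg1sh_4935 array (0.0881 and 0.233), Rluc replicate 1 (0.061) or Rluc replicate 2 (0.0701) Cd74 did. The H2-Ab1 difference between Brg1sh_4935 and Brg1sh_3232 lost its call in 7 of 9 fits that left out 1 array. Those of H2-Ab1 between Brg1sh_3232 and Brg1sh_3364, and of H2-DMa and Cd74 between Brg1sh_4935 and Brg1sh_3364, each did in 4 of 9, once for each array of the hairpins compared.

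H2-Ob, the partner chain of H2-Oa, was likewise lowest with Brg1sh_3364, and it was called on both sides of Rluc. It read 9.33, 9.63 and 9.68 with Rluc, 9.95 and 10.17 with Brg1sh_3232, 8.99 and 8.91 with Brg1sh_3364, and 10.28 and 10.03 with Brg1sh_4935. It fell by 0.59 (SE 0.12, adjusted p = 0.00562) with Brg1sh_3364 and rose by 0.51 (SE 0.12, adjusted p = 0.0143) and 0.61 (SE 0.12, adjusted p = 0.00553) with Brg1sh_3232 and Brg1sh_4935. Its F test gave an adjusted p of 0.00134. The 3 calls against Rluc were lost without Brg1sh_3364 replicate 2 (0.0577), Brg1sh_3232 replicate 2 (0.13) and Brg1sh_4935 replicate 1 (0.0739), each in its own comparison. The immunoproteasome gene Psmb8 fell by 0.47 (SE 0.05, adjusted p = 0.000134) with Brg1sh_3364 and by 0.20 (SE 0.05, adjusted p = 0.0145) with Brg1sh_4935, and its change with Brg1sh_3232 was 0.11 (SE 0.05, adjusted p = 0.15). The second of these calls was lost without Brg1sh_4935 replicate 1 (0.067) or 2 (0.096). Irf8, a myeloid and interferon regulator picked out after its values were seen, fell by 0.40 (SE 0.06, adjusted p = 0.00147) with Brg1sh_3364. It rose by 0.22 (SE 0.06, adjusted p = 0.0359) with Brg1sh_3232, a call lost in 8 of 9 fits that left out 1 array, and with Brg1sh_4935 its change was 0.12 (SE 0.06, adjusted p = 0.24).

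**Figure D3:**
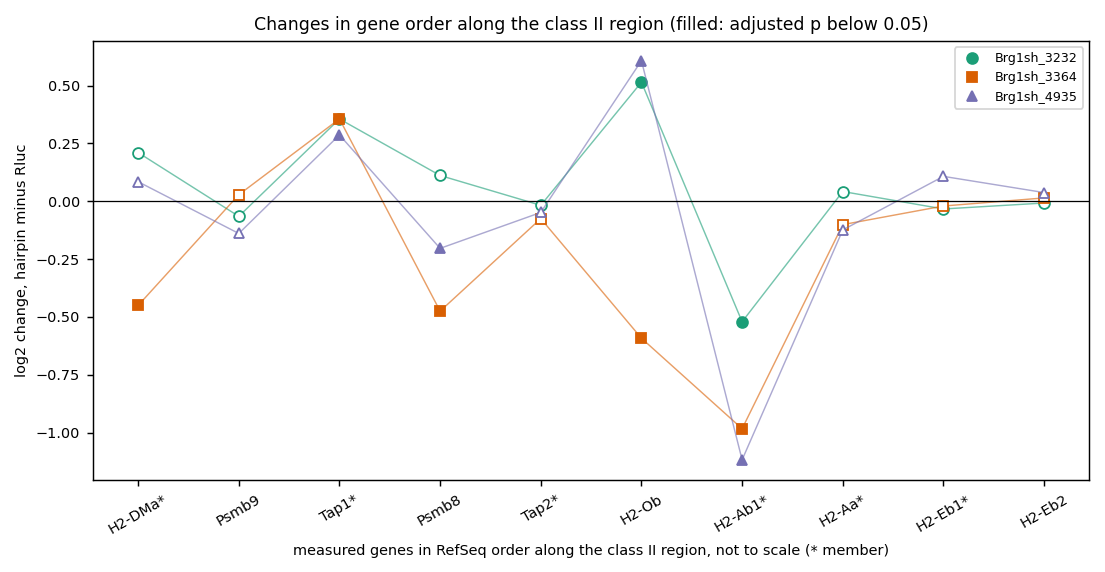
Log2 change of each measured gene with each hairpin minus Rluc, in RefSeq gene order along the class II region and not to scale, with filled points for an adjusted p below 0.05 and a star for the genes followed here. Neighbours differ: Tap1 rises between Psmb9 and Psmb8, and H2-Ab1 falls beside H2-Aa, which has a low level and stays near 0.

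H2-DMa, Tap1, Tap2, H2-Ab1, H2-Aa and H2-Eb1 lie in 1 stretch of chromosome 17, which in RefSeq spans 221.7 kb from H2-DMa to H2-Eb2 and holds 12 protein-coding genes. Of these, 10 were measured, and called and uncalled genes were interspersed. Psmb9, an immunoproteasome gene beside Tap1, had changes of -0.065, 0.028 and -0.14 with Brg1sh_3232, Brg1sh_3364 and Brg1sh_4935 (SE 0.07 each), none of them called (adjusted p from 0.209 to 0.831). H2-Ob rose or fell with the hairpin, H2-Ab1 next to it fell with each, and H2-Aa, H2-Eb1 and H2-Eb2 were not called. Called neighbours thus did not all share a direction. H2-Aa and H2-Eb2 averaged 5.60 and 6.06 with Rluc, within the range of the T cell markers. Their changes near 0 therefore say little.

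Among 16 further measured genes of class I presentation, 5 rose, 3 fell and 8 were not called over the mean of the hairpins, with a median of 0.0033. With arrays centred on their medians 4 rose and 4 fell, and with the 3 hairpin means as replicates 1 rose and 0 fell, that gene being H2-T24. Another of the 5, Nlrc5, rose by 0.15 (SE 0.05, adjusted p = 0.0482), but with Brg1sh_3364 its change was -0.031 (adjusted p = 0.8). Other probe sets of Nlrc5 ranged from -0.16 to 0.36 over the mean of the hairpins, and most were not called when every probe set was tested. The non-classical class I gene H2-T24 rose by 1.24 (SE 0.08, adjusted p = 6.57e-06). H2-M3, which presents formylated peptides, rose by 0.37 (SE 0.08, adjusted p = 0.00703) and H2-Q4 by 0.23 (SE 0.05, adjusted p = 0.00888). These 2 rises were not shared by all hairpins. H2-M3 and H2-Q4 rose with Brg1sh_3232 (0.62 and 0.33) and with Brg1sh_4935 (0.49 and 0.45). With Brg1sh_3364 their changes were 0.0075 and -0.096, neither called. The F test among the hairpins called both (adjusted p = 0.0186 and 0.00439). The immunoproteasome genes Psmb8 and Psmb10 fell by 0.19 (SE 0.04, adjusted p = 0.00433) and 0.32 (SE 0.07, adjusted p = 0.00719). Without Brg1sh_3364 the calls of Psmb8 (adjusted p = 0.478) and Psmb10 (0.115) were lost, and without Brg1sh_4935 that of H2-Q4 (0.218). Near-identical class I genes can share probes, so the H2-Q and H2-T values are uncertain, and H2-K1 and H2-D1 were not analysed here.

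Endosomal proteases clear the invariant chain and cut antigen. Of 7 endosomal genes, a reductase among them, 6 rose, with a median of 0.54, while 13.3% of all genes rose. The reductase Ifi30 was the gene not called over the mean of the hairpins (-0.18, adjusted p = 0.161). With Brg1sh_3364 Ifi30 fell by 0.36 (adjusted p = 0.0374). Over that mean Lgmn, an asparagine-specific protease, rose by 2.77 (SE 0.11), Ctss, which trims the invariant chain, by 0.98 (SE 0.10), Ctsl by 0.71 (SE 0.10), Ctsd by 0.54 (SE 0.04) and Ctsb by 0.20 (SE 0.03). Adjusted p ranged from 5.46e-07 for Lgmn to 0.00163 for Ctsb, whose call was lost with hairpin means as replicates (0.174). Ctsb differed among the hairpins (F test adjusted p = 0.00789) and was not called with Brg1sh_3364 (0.052, adjusted p = 0.463). With arrays centred on their medians 5 rose and 1 fell. Macrophages make these proteases too, and 6 of the 7 macrophage markers above also rose over the mean of the hairpins. The part of these markers was not tested.

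Of 8 measured genes of the interferon gamma route 6 rose and 2 were not called, with a median of 0.23. Over the mean of the hairpins 13.3% of all genes rose and 15% fell. Irf1, a transcription factor that acts on Tap1 and other class I genes, rose by 0.59 (SE 0.08, adjusted p = 0.000492), but only 0.077 separated the groups in another probe set of Irf1 (adjusted p = 0.348). The receptor chain Ifngr2 rose by 0.53 (SE 0.05, adjusted p = 5.49e-05), the feedback inhibitor Socs1 by 0.31 (SE 0.04, adjusted p = 0.000701), Irf2 by 0.25 (SE 0.06, adjusted p = 0.0134) and the kinase Jak2 by 0.21 (SE 0.04, adjusted p = 0.00239). Socs1 and Jak2 differed among the hairpins (F test adjusted p = 0.0112 and 0.0265). Socs1 was called with each hairpin, at 0.19, 0.55 and 0.21 with Brg1sh_3232, Brg1sh_3364 and Brg1sh_4935. Jak2 was not called with Brg1sh_3232 (0.087, adjusted p = 0.256), and it rose by 0.35 with Brg1sh_3364 and by 0.18 with Brg1sh_4935. Irf2 was not called with Brg1sh_3364 (0.15, adjusted p = 0.221). When each hairpin's mean stood for 1 replicate 2 of the 8 genes were called, and the calls of Socs1 (0.1), Irf2 (0.0965) and Jak2 (0.121) were among those lost. In that fit 1337 of all 19937 genes rose and 1479 fell. Of 6 surface molecules of T cell co-stimulation or its restraint 2 rose and 1 fell, with a median of 0.063. Cd274, or PD-L1, a ligand of the inhibitory receptor PD-1, rose by 1.07 (SE 0.11, adjusted p = 0.000142) and Cd86, a ligand of CD28, by 0.55 (SE 0.08, adjusted p = 0.000696). Cd80 fell by 0.19 (SE 0.06, adjusted p = 0.036), a call lost in 7 of 9 fits that left out 1 array, and another probe set of Cd80 stood at -0.060. The gene differed among the hairpins (F test adjusted p = 0.00284): it fell by 0.51 (SE 0.08, adjusted p = 0.00171) with Brg1sh_3232 and by 0.27 (SE 0.08, adjusted p = 0.0318) with Brg1sh_4935, while with Brg1sh_3364 its change was 0.20 (SE 0.08, adjusted p = 0.0919) and both arrays lay above Rluc. That other probe set rose by 0.36 with Brg1sh_3364 (adjusted p = 0.0177). Mr1, which shows vitamin B metabolites, rose by 0.28 (SE 0.06, adjusted p = 0.00618), while Cd1d1 and Cd1d2 were not called. The rise of Mr1 was not shared by all hairpins (F test adjusted p = 0.021). It rose by 0.31 with Brg1sh_3232 and by 0.51 with Brg1sh_4935, while with Brg1sh_3364 its change was 0.038 (adjusted p = 0.797). Without Brg1sh_4935 the call of Mr1 was lost (0.126).

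**Figure D4:**
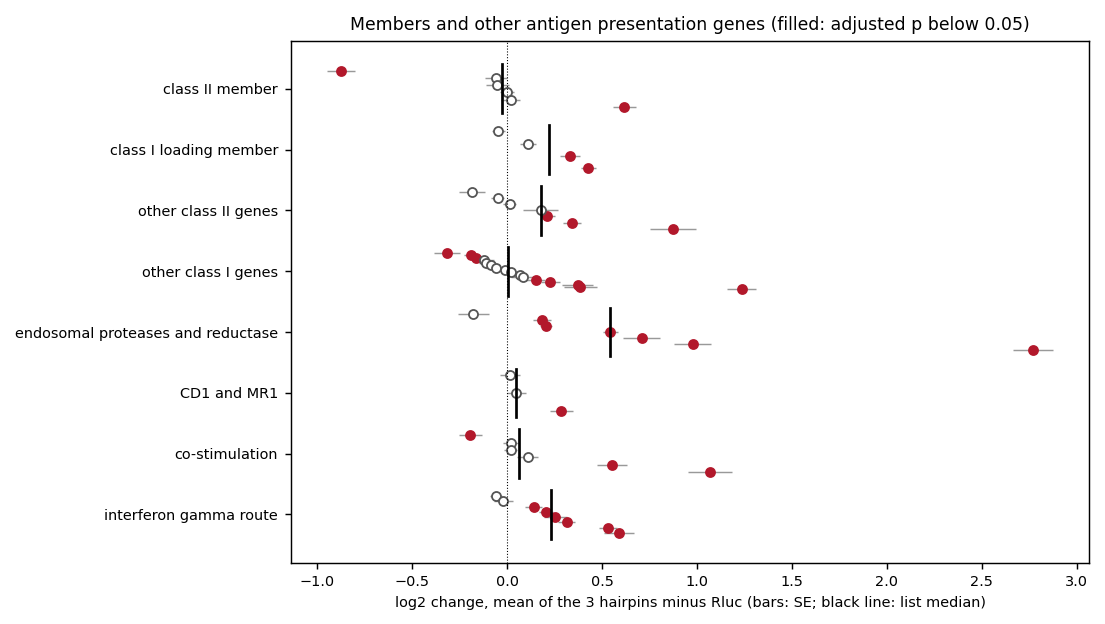
Log2 change over the mean of the 3 hairpins minus Rluc for the followed genes and for 6 lists of other antigen presentation genes, 1 point per gene with its SE, filled for an adjusted p below 0.05, and a black line at each list's median. The medians are 0.54 for the endosomal proteases, 0.22 for class I loading and -0.026 for the class II genes.

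The genes most like the followed ones over the 9 arrays were found by the root mean square difference of log2 values after subtracting each gene's Rluc mean, among 18248 genes. Nearest to H2-Ab1 were Slc39a8, a zinc transporter, at 0.10, Far2, a fatty acyl reductase, at 0.11 and Mpo, the myeloperoxidase of primary granules, at 0.12. Mpo fell by 0.43, 1.07 and 1.12 with Brg1sh_3232, Brg1sh_3364 and Brg1sh_4935. Nearest to Cd74 were Dnase1l1 at 0.048, the interleukin 12 receptor chain Il12rb2 at 0.072 and the peptide transporter Slc15a3 at 0.073. Tap1 had Slc15a4 at 0.036, Helz2 at 0.037 and Abl1 at 0.041 beside it, and Tapbp had Cd37 at 0.026, Orai1 at 0.030 and Slc25a45 at 0.030. These are descriptions of likeness, with no test.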

How the data were processed

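Per the submitters' processing notes the authors made the deposited log2 values with RMA, which corrects background, sets arrays to 1 distribution and combines the probes of a probe set. Neither its version nor a genome build for the array was given in the sources used here. Detection calls, scanner output and scan dates were not used. Among 34760 probe sets the platform annotation named 1 gene for 21640, several for 1321 (left unnamed) and none for 11799. Entrez identifiers matched 21553 of the first to a RefSeq table (GRCm38.p6), which altered 0 symbols. The probe set with the highest mean stood for its gene, leaving 19937 genes.

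A limma model (version 3.58.1, R 4.3.3; lmFit and eBayes) with 1 mean per group took in all 9 arrays, with 5 residual and 3.85 prior degrees of freedom. Tests were two-sided, adjusted after Benjamini-Hochberg over all genes and called below 0.05, and the code was tested on simulated data. No label says that replicates were grown separately, so the p-values cover the spread among these arrays, which may be technical, and the number of arrays limits the precision. Named were the 10 genes, Smarca4, at most 5 genes of each list by smallest p over the mean of the hairpins, and the 3 genes most like H2-Ab1, Cd74, Tap1 and Tapbp, with unnamed clones and predicted genes left out of that search. H2-Ob, Psmb8, Psmb9, H2-M3, H2-Q4 and Cd80 by hairpin were singled out after their values were seen. Rfxank, Rfxap, H2-Oa, Nlrc5, Ctsb, Ifi30, Jak2, Socs1, Irf2 and Mr1 by hairpin were too. So were the further genes named for the F test, the marker genes, Irf8 and the Y-linked genes. Genes, lists and tests were chosen with earlier results of these data known. The alternatives were a further normalization, centring, a filter on low genes, other probe set rules, other variance models, array weights, a replicate block, a threshold of 0.01, each array left out, smaller fits and hairpin means in place of arrays; leaving out each hairpin was added after seeing the data. The labels do not pair the samples, and the correlations of same-numbered arrays cannot settle whether they are paired.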

Additional observations from a re-analysis of the deposited data

Results flagged for a closer look

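Of the 10 genes, 3 differed among the 3 Brg1 hairpins by the F test. Its adjusted p was 0.00419 for H2-DMa, 0.0155 for H2-Ab1 and 0.0446 for Cd74. H2-DMa was lowest with Brg1sh_3364, H2-Ab1 was highest with Brg1sh_3232, and Cd74 was highest with Brg1sh_4935.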

How the results depend on the processing

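H2-Ab1, Cd74 and Tapbp kept their direction and call against Rluc with each hairpin under every alternative that tested them; Cd74 was not tested where genes below the median level were left out. The number of the 10 genes called ranged, leaving out 1 array, from 3 to 5 with Brg1sh_3232, 5 to 5 with Brg1sh_3364, 3 to 4 with Brg1sh_4935, 4 to 4 over the mean and 0 to 3 for the F test among hairpins. That F test called 1 gene when every deposited probe set was tested and 1 at a threshold of 0.01. Signs turned only for values that were not called. After a further quantile normalization these were Ciita with Brg1sh_3232 (-0.0063) and Brg1sh_4935 (-0.024), Tap2 with Brg1sh_3232 (0.0015), and over the mean H2-Eb1 (-0.032), Cd1d2 (-0.023) and Cd40 (-0.021). With centred arrays they were Ciita (-0.0065 and -0.027), H2-Eb1 (-0.024), Cd1d2 (-0.029) and Cd40 (-0.023). Array weights gave 0.0070 for Ciita over the mean. Without Brg1sh_3364 the mean was 0.15 for H2-DMa and 0.026 for Ciita, and without Brg1sh_4935 it was -0.027 for H2-Eb1 and -0.039 for H2-Ob. Leaving out 1 array, H2-Aa with Brg1sh_3232 ranged from -0.076 to 0.16, H2-Eb1 with Brg1sh_3364 from -0.051 to 0.0075, and Ciita from -0.0015 to 0.041 with Brg1sh_3232 and from -0.0016 to 0.069 with Brg1sh_4935. Over the mean H2-Eb1 ranged from -0.016 to 0.052, Ciita from -0.022 to 0.021 and Cd1d2 from -0.028 to 0.055. Between hairpins, Cd74 ranged from -0.0094 to 0.24 (Brg1sh_3232 minus Brg1sh_3364), H2-DMa from -0.27 to 0.022 (Brg1sh_4935 minus Brg1sh_3232) and H2-Ab1 from -0.28 to 0.0071 (Brg1sh_4935 minus Brg1sh_3364). The cause was not tested. With the replicate number as a block 4, 5, 4 and 4 genes were called with the 3 hairpins and over the mean and 3 by the F test; Rluc replicate 3 has no partner and drops out of that fit. Deviations of same-numbered arrays correlated at -0.072 to 0.25 in 12 pairs, 2 of them over 0.1. Both of those set Rluc beside Brg1sh_3232 (0.19 and 0.25). With 2 arrays per hairpin, a pair of hairpins gives the same value for both replicate numbers. The 12 values are thus not independent and cannot settle whether the numbers pair the samples.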
